A study of Rattus norvegicus with 18 samples.

Results

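The 48 genes described here encode molecular chaperones and folding enzymes of the cytosol, the mitochondrion and the endoplasmic reticulum (ER), with 2 regulators of the ER stress response. They were all genes on the array whose only symbol in the platform annotation follows a naming rule. The symbol starts with Hsp (Hspg2 left out), Dnaj, Pdia, Fkbp or Cct and a digit, or is Ppia to Ppih. Calr, Canx, Hyou1, Ddit3, Ppp1r15a and Cryab were added by name. Members of these families under other symbols, such as P4hb, Erp29 and Trap1, are not among the 48. That rule reads symbols and no measured values, although the families were chosen with earlier results of these data known. A gene with several probe sets was read from the brightest one on average. The 48 genes were 48 of 4736 named genes, with 91 of the 8740 probe sets, and 27 of them had several probe sets. A further 10 probe sets carried a chaperone symbol among several symbols, and no gene was named from them.

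Expression was measured on 18 one-colour Affymetrix arrays in 2 rat thyroid cell lines. The groups were FRT/TSHR, labelled de-differentiated, at basal, 30 min and 17 h of bovine TSH (1 U/L), and FRTL5, labelled differentiated, at basal, 30 min and 17 h (0.1 U/L). Each group had 3 arrays, described as biological replicates. FRT/TSHR cells were grown in Coon's modified F12 medium, FRTL5 cells for 5 days in the TSH-free medium 5H, and both lines were kept without serum for 12 h before TSH. The lines also differed in TSH dose and in medium, which comparisons between them cannot tell apart from the line. No untreated 30 min or 17 h group is labelled, so an effect of TSH cannot be told apart from time and handling. Values are RMA log2 expression, in which a difference of 1 is a doubling, and levels of different genes were not compared.

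Chaperones bind unfolded or partly folded proteins and use ATP, partner proteins or binding alone to keep them soluble. In the ER, the Hsp70 protein Hspa5 (BiP), the Hsp90 protein Hsp90b1 (GRP94), the lectin chaperones Calr and Canx and the disulfide isomerases fold secreted glycoproteins, of which thyroglobulin is the major one in a thyrocyte. TSH acts on thyrocytes mainly through its receptor and cAMP. The unfolded protein response raises ER chaperones through ER stress response elements in their promoters, and heat shock factor raises cytosolic and mitochondrial chaperones through heat shock elements.

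Thyroid genes differed between the lines. At basal, Tg (thyroglobulin) averaged 4.17 ± 0.19 in FRT/TSHR and 11.21 ± 0.70 in FRTL5 (SD, n = 3 each), and Pax8, Nkx2-1, Foxe1 and Slc5a5 also had lower means in FRT/TSHR. The Tshr probe set read 6.60 ± 0.14 in FRT/TSHR and 6.56 ± 0.19 in FRTL5, and whether it reads the introduced receptor is not given in the sources used here. Calca, a C cell marker, and the endothelial markers Pecam1 and Kdr lay below the median of all values (5.52) in every group mean. The leukocyte markers Ptprc and Cd74 had group means of 5.87 to 6.74, and of the fibroblast markers Col1a1 had 6.43 to 6.56, Col3a1 5.33 to 5.56 and Pdgfra 4.64 to 5.34. In cultures measured in bulk, fewer cells of a type and less RNA per cell cannot be told apart. The 3 FRTL5 arrays numbered 1 stood apart in the signal along the beta-actin transcript, with a 3' minus 5' difference of 1.13 to 1.22, against -0.14 to 0.28 on the other 15 arrays. On them 6 of the 48 genes read higher than on every other FRTL5 array (Cct6a, Hspd1, Dnajb9, Cct3, Hsp90ab1 and Ppid) and 2 read lower (Hsp90b1 and Canx), where 9.92% and 11.5% of all probe sets did so.

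**Figure D1:**
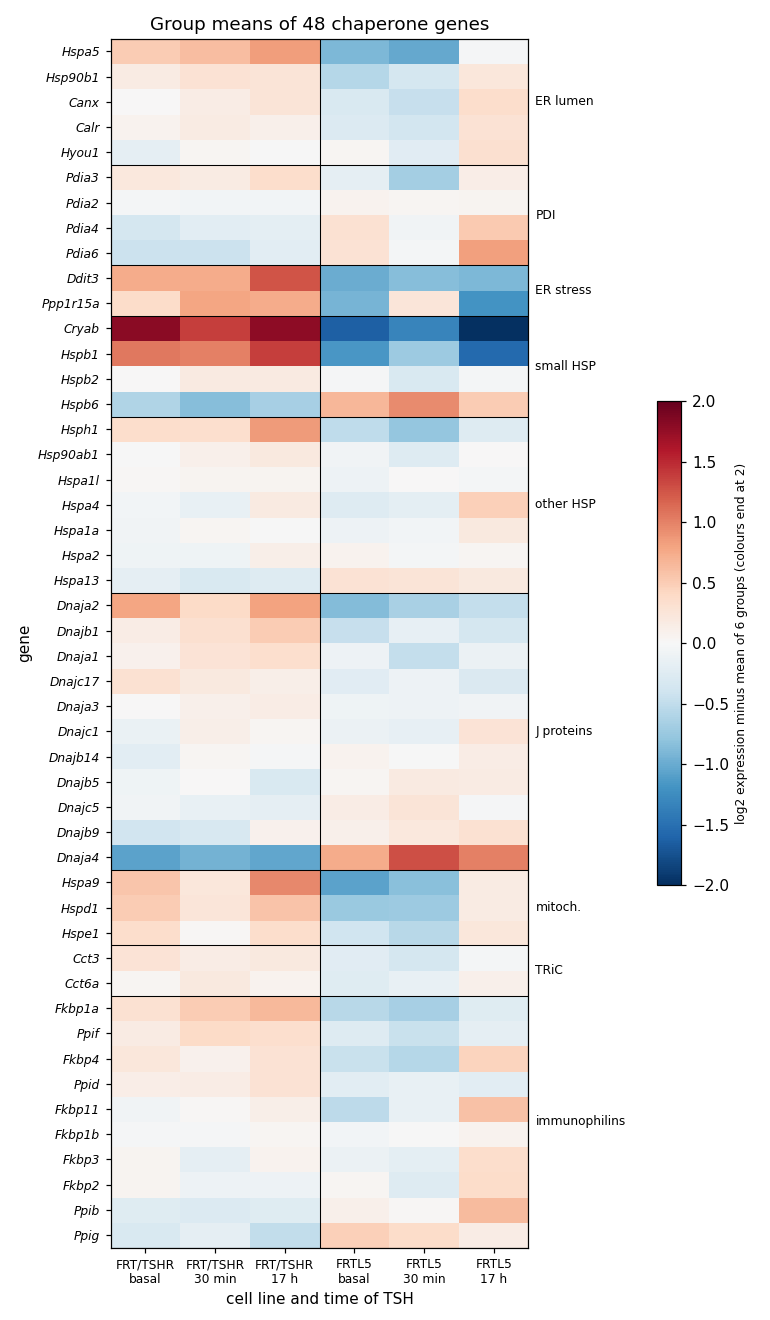
Group means of the 48 genes as log2 expression minus the mean of the 6 groups, by role, with FRT/TSHR in the left columns and FRTL5 in the right columns, each at basal, 30 min and 17 h of TSH. Red is above and blue below a gene's own mean. Cryab and Hspb1 are red in FRT/TSHR and blue in FRTL5, and many ER, mitochondrial and immunophilin genes turn redder in the FRTL5 17 h column.

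After 17 h of TSH, FRTL5 cells had more mRNA of 5 of the 48 genes than basal cells, and less of none. They were Pdia6, an ER disulfide isomerase; Hspa9 and Hspe1, chaperones of the mitochondrial matrix; Fkbp11, a prolyl isomerase of the secretory pathway; and Fkbp4, an Hsp90 co-chaperone that binds steroid receptors. Their increases were 1.44-fold to 2.36-fold. Of all probe sets 3.56% passed in this comparison, 1.64% higher and 1.92% lower, and of all genes 4.12% (limma, Benjamini-Hochberg adjusted p under 0.05 over 8740 probe sets). Of the 48 genes 36 had a positive difference, where 53.2% of all probe sets did. The median was 0.21 in the 48 genes and 0.01 over all probe sets. In 10 genes every 17 h array was above every basal array and in 0 every one was below, where 7.6% and 7.78% of all probe sets did so.

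The replicate numbers were also taken to pair the arrays within a line, an assumption that the data do not settle. Deviations from the group means correlated at 0.69 to 0.80 between FRTL5 arrays numbered 1. Between same-numbered FRTL5 arrays 2 or 3 they correlated at 0.15 to 0.47. Counts with the block rest on this assumption. The labels do not state this pairing. With the number as a block, 13 of the 48 genes passed in FRTL5 at 17 h, all higher, against 9.92% of all probe sets in either direction and 4.15% higher. The 5 genes above were among the 13, and the others were Hspa5, Hsp90b1, Calr, Canx, Hspd1, Hspa4, Ppib and Fkbp3. Fkbp3 was dim, with a mean of 4.04 over the 18 arrays, below the median of all values (5.52). Each of the 13 was higher at 17 h in 3 of 3 same-numbered pairs. This adds no separate evidence, since the block fit that picked the 13 reads the same pairs.

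**Figure D2:**
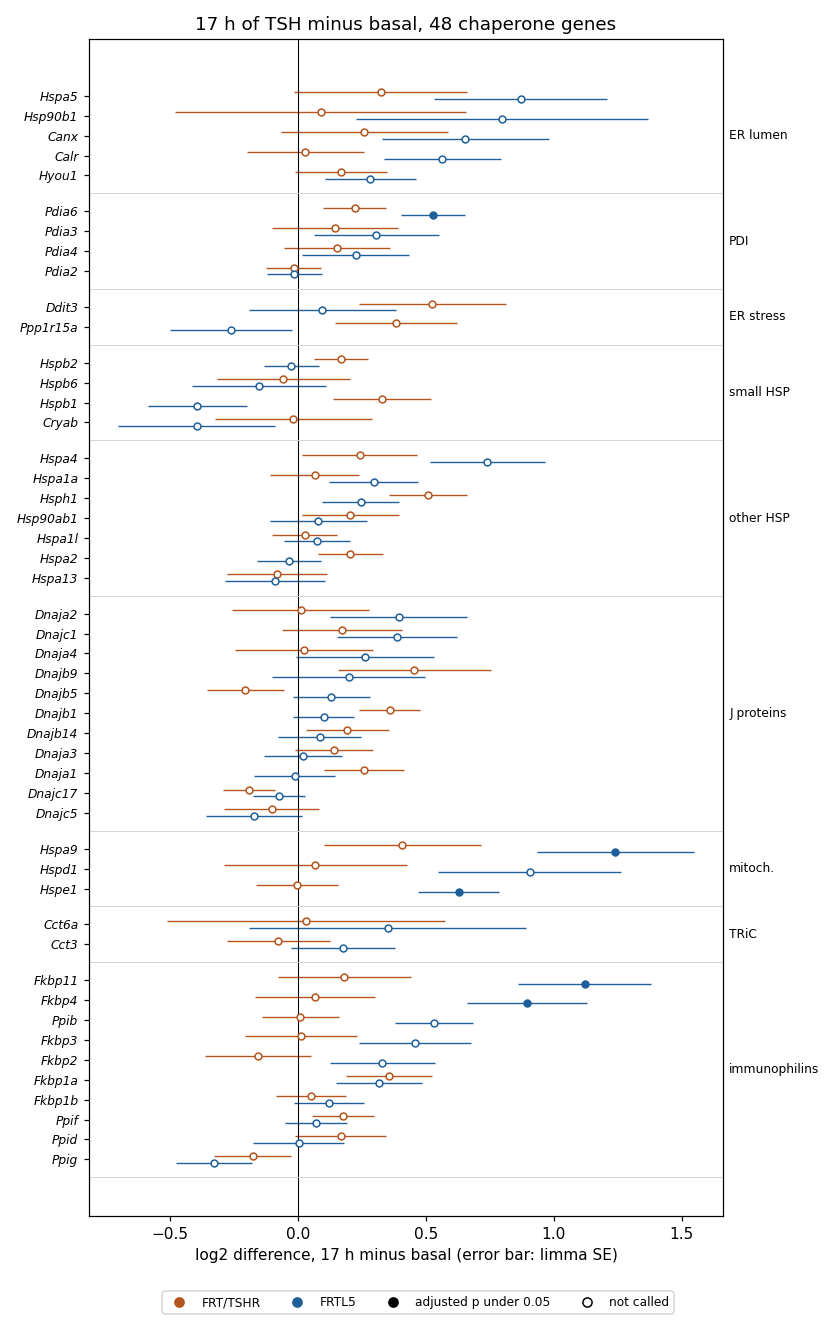
Log2 difference, 17 h of TSH minus basal, for the 48 genes by role, with FRT/TSHR above FRTL5 for each gene and limma SE as the error bar. Filled points passed at an adjusted p under 0.05. The filled points are Pdia6, Hspa9, Hspe1, Fkbp11 and Fkbp4, all in FRTL5. All 5 ER lumen chaperones and all 3 genes of the mitochondrial role list lie right of 0 in FRTL5.

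The ER lumen chaperones all had positive differences at 17 h in FRTL5 (5 of 5, median 0.65), but 0 of 5 passed without the block and 4 of 5 with it. Of all probe sets 53.2% were positive, 1.64% passed as higher without the block and 4.15% with it. In FRT/TSHR 5 of 5 were positive too (median 0.17). Hspa5, the ER Hsp70 that binds nascent chains and holds the stress sensors inactive, read 7.88, 7.67 and 7.56 at basal, 7.90, 7.62 and 7.22 at 30 min and 9.41, 8.14 and 8.17 at 17 h in FRTL5. All 3 arrays at 17 h were above the basal ones, the array numbered 1 by most. The difference was 0.87 ± 0.34 (SE; 1.83-fold, adjusted p = 0.241, and 0.0361 with the replicate block).

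Hsp90b1, the ER Hsp90, read 8.40, 9.91 and 10.25 at basal, 8.69, 10.09 and 10.46 at 30 min and 8.87, 11.04 and 11.04 at 17 h in FRTL5. The array numbered 1 was the lowest in each group, so the groups overlapped, while each pair moved up, by 0.47, 1.13 and 0.79. The difference was 0.80 ± 0.57 (adjusted p = 0.684, and 0.0031 with the block). Canx, the membrane lectin chaperone, had the same arrangement, with pairs that moved by 0.39, 0.84 and 0.73 and a difference of 0.65 ± 0.33 (adjusted p = 0.441, and 0.0047 with the block). Calr, its soluble relative, differed by 0.56 ± 0.23 (adjusted p = 0.274, and 0.0315 with the block), without overlap between its groups. Hyou1, an ER Hsp110 that recharges Hspa5 with ATP, differed by 0.28 ± 0.18 and did not pass in either fit. The beta-actin signal differed with the arrays numbered 1, and its part in the levels of Hsp90b1 and Canx was not tested.

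The promoters of all 5 ER lumen chaperones held a consensus ER stress element, which is why the matching stretches are shown. The element was searched as CCAAT and CCACG with 9 bases between them, and a second form, ERSE-II, as ATTGG and CCACG with 1 base between them, on both strands of the 250 bases before the RefSeq start (GRCr8 build). Of 42 genes with a promoter sequence, 4 held the first form (Calr, Canx, Hsp90b1 and Hspa5) and 1 the second (Hyou1), against 0.0657% and 0.0418% of the 33469 promoter windows of that length. The 2 forms did not overlap in any of them. Each stretch is written 5′ to 3′ along the gene's own strand, with the match in capitals.
Hspa5 (chr3:38452961-38453003, + strand): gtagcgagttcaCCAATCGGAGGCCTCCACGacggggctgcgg
Hsp90b1, distal match (chr7:23012439-23012481, - strand): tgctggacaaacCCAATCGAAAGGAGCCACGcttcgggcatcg
Hsp90b1, proximal match (chr7:23012335-23012377, - strand): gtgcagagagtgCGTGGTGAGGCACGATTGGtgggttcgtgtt
Calr (chr19:40213123-40213165, + strand): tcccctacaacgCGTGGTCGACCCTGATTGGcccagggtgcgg
Canx (chr10:35158057-35158099, - strand): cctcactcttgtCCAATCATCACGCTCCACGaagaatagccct
Hyou1, distal match (chr8:53602682-53602716, + strand): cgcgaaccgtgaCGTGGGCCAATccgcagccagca
Hyou1, proximal match (chr8:53602782-53602816, + strand): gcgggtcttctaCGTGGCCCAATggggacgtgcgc
The match in Hspa5 lay at bases -43 to -25 from the start, and those in Calr and Canx at -232 to -214 and -230 to -212. A match describes these letters and is not a site shown to be bound. The 4 genes with the first form were the 4 ER lumen chaperones that passed with the block in FRTL5 at 17 h. Hyou1, with the second form, did not pass, and 0 of the 5 passed without the block. Whether the elements had a part in these differences was not tested.

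Among the 4 disulfide isomerases with a Pdia symbol, Pdia6 rose at 17 h in FRTL5. Pdia6, which forms and rearranges disulfide bonds and binds Hspa5, read 9.68, 9.63 and 9.79 at basal, 9.54, 9.36 and 9.20 at 30 min and 10.17, 10.30 and 10.21 at 17 h. The 3 groups did not overlap: the 30 min arrays were the lowest and the 17 h arrays the highest. At 17 h it was 1.44-fold above basal (0.53 ± 0.12, adjusted p = 0.0259) and 1.82-fold above 30 min (0.86 ± 0.12, adjusted p = 0.0011). The difference at 30 min against basal, -0.33 ± 0.12, did not pass (adjusted p = 1.00). Pdia3 and Pdia4, thiol oxidoreductases that work with the lectin chaperones and with Hspa5, differed by 0.31 and 0.23 at 17 h against basal and did not pass. Against 30 min they differed by 0.80 ± 0.25 (adjusted p = 0.0887) and 0.59 ± 0.21 (adjusted p = 0.158), and both passed with the block (0.0047 and 0.0174). Pdia2, an isomerase known mainly from the pancreas, read between 4.56 and 4.99 on all 18 arrays.

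The mitochondrial role list held 3 matrix chaperones, Hspa9, Hspe1 and Hspd1, and is not a complete set. All 3 had positive differences at 17 h in FRTL5, with a median of 0.91, and 2 of them rose. Outside the list, Trap1, a mitochondrial Hsp90, differed by 0.40 ± 0.17 and did not pass (adjusted p = 0.325). Dnaja3, a mitochondrial protein counted with the J proteins, averaged 7.14 at basal and 7.16 at 17 h in FRTL5 and did not pass. Hspa9, the mitochondrial Hsp70 (mortalin) that pulls in imported proteins, read 6.33, 6.58 and 5.70 at basal, 6.40, 6.62 and 6.32 at 30 min and 7.11, 7.64 and 7.58 at 17 h. All 17 h arrays were above all others, and the third basal array was the lowest. Hspa9 rose 2.36-fold over basal (1.24 ± 0.31, adjusted p = 0.0341), but its second-brightest probe set differed by 0.18 and did not pass (adjusted p = 0.912).

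Hspe1, the Hsp10 lid of the mitochondrial chaperonin, read 8.80, 8.93 and 8.64 at basal, 8.74, 8.68 and 8.48 at 30 min and 9.70, 9.21 and 9.34 at 17 h in FRTL5. The 17 h arrays again stood above all others. It rose 1.55-fold over basal (0.63 ± 0.16, adjusted p = 0.0404) and 1.72-fold over 30 min (0.78 ± 0.16, adjusted p = 0.0117). Its second probe set differed by 0.68 and 0.93 without passing (adjusted p = 0.469 and 0.192). Hspd1, the Hsp60 barrel that Hspe1 closes, read 10.24, 9.28 and 8.67 at basal, 10.08, 9.20 and 8.95 at 30 min and 10.95, 9.98 and 9.99 at 17 h. The array numbered 1 was the highest in each group, so the groups overlapped, and the 17 h minus basal pairs were 0.70, 0.70 and 1.32. Hspd1 differed by 0.91 ± 0.36 (adjusted p = 0.252, and 0.0005 with the block).

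Hspe1 and Hspd1 are transcribed away from each other from starts 290 bases apart on chromosome 9, and their upstream windows share heat shock element letters. The element was searched on both strands as GAA, TTC and GAA with 2 bases between each, and was found in the windows of Hspe1, Hspd1 and Hsph1, 3 of 42 genes, against 0.663% of all windows. The 250 bases before the Hspe1 start are shown because both genes share the capitals, which mark 2 overlapping matches at bases -65 to -53 and -60 to -48. Hsph1, a cytosolic Hsp110, held 1 match at -36 to -24.
Hspe1 (chr9:64084077-64084326, + strand): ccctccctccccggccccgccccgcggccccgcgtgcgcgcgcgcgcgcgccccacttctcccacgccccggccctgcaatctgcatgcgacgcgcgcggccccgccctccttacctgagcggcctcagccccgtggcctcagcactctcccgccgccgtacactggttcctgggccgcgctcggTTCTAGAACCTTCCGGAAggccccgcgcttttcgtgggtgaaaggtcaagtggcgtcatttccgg
Hsph1 (chr12:10427320-10427356, + strand): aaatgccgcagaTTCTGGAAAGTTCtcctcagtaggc
In FRTL5 at 17 h against basal, Hsph1 differed by 0.25 ± 0.15 and did not pass in either fit. These matches are not sites shown to be bound, and their part in the differences was not tested.

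**Figure D3:**
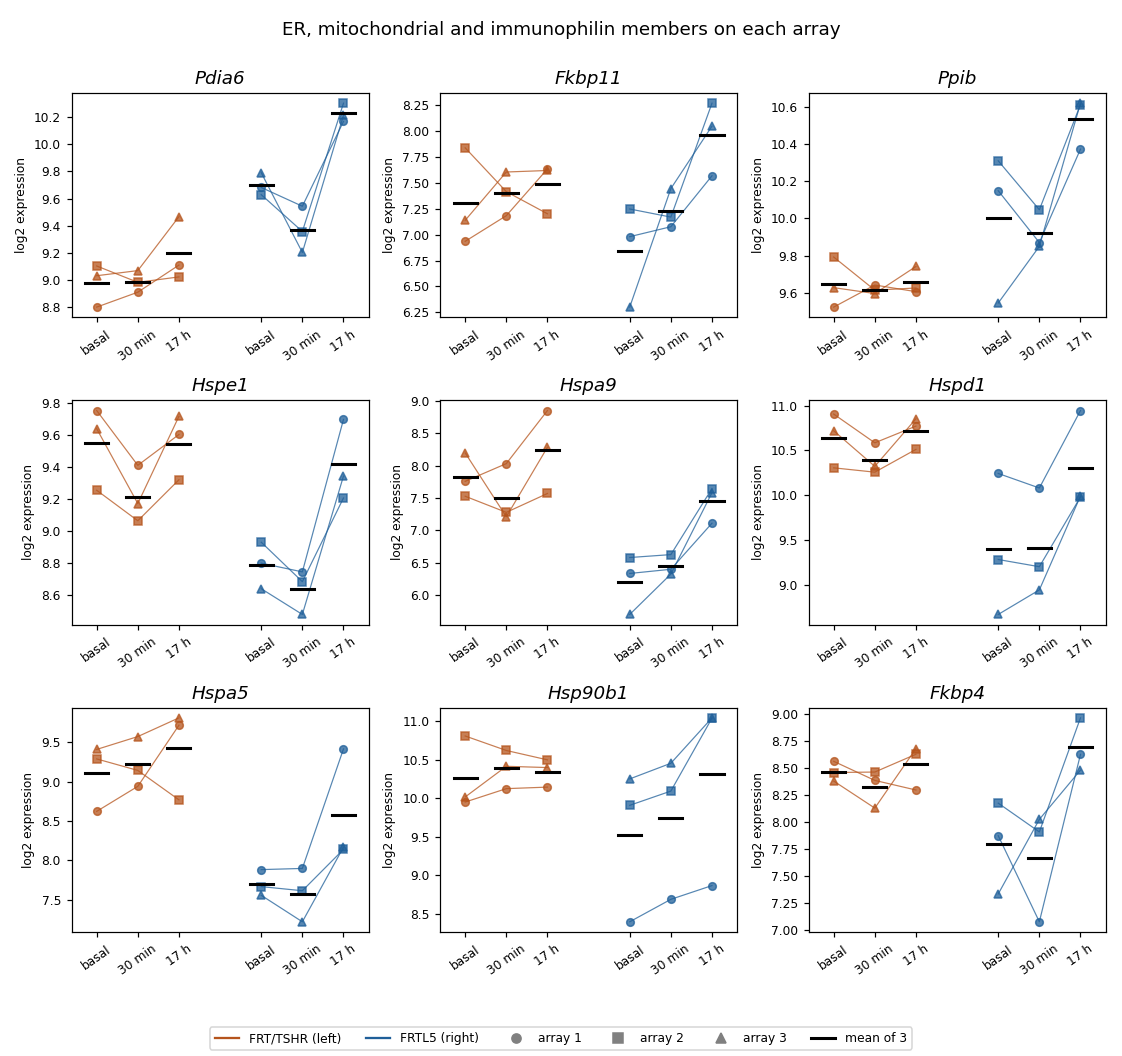
Log2 expression of 9 genes on each array, with FRT/TSHR on the left and FRTL5 on the right of each panel and basal, 30 min and 17 h from left to right. Lines join arrays with the same replicate number in a line, and black bars are means of 3. In FRTL5 every line runs up between 30 min and 17 h in all 9 panels. All 9 genes were among those that passed as higher in FRTL5 at 17 h with the block. Rises there, and weaker ones in FRT/TSHR, follow in part from that choice. Between 30 min and 17 h in FRT/TSHR, at least 1 line runs down in the panels of Fkbp11, Ppib, Hspa5, Hsp90b1 and Fkbp4.

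Of the 10 immunophilins, prolyl isomerases that bind cyclosporin or FK506, 9 had a positive difference at 17 h in FRTL5, where 53.2% of all probe sets did. The median of the 10 was 0.32, and 2 rose. Fkbp11 read 6.98, 7.25 and 6.30 at basal, 7.08, 7.17 and 7.45 at 30 min and 7.57, 8.27 and 8.05 at 17 h. All 17 h arrays were above the basal arrays, and the third basal array was the lowest. Fkbp11 was 2.17-fold above basal (1.12 ± 0.26, adjusted p = 0.0236).

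Fkbp4 read 7.87, 8.17 and 7.33 at basal, 7.08, 7.91 and 8.02 at 30 min and 8.62, 8.96 and 8.48 at 17 h in FRTL5, with the 17 h arrays above all others. It was 1.86-fold above basal (0.89 ± 0.23, adjusted p = 0.0457) and 2.03-fold above 30 min (1.02 ± 0.23, adjusted p = 0.0215). Of its other probe sets, 1 passed at 17 h (0.66 over basal, adjusted p = 0.0181) and 1 did not (0.46, adjusted p = 0.606). Ppib, cyclophilin B of the ER, read 10.15, 10.31 and 9.55 at basal, 9.87, 10.05 and 9.85 at 30 min and 10.37, 10.61 and 10.62 at 17 h. Its 17 h arrays lay above all others, at 1.53-fold over 30 min (0.61 ± 0.15, adjusted p = 0.0322) and 1.45-fold over basal (0.53 ± 0.15, adjusted p = 0.0741, and 0.0231 with the block). Its second probe set differed by 0.45 at 17 h against 30 min (adjusted p = 0.126). Fkbp1a, the FK506 target FKBP12, differed by 0.32 ± 0.17 and Fkbp2, an ER isomerase, by 0.33 ± 0.21 at 17 h against basal, and neither passed. Ppig, a nuclear cyclophilin, was the 1 member of the list with a negative difference (-0.33 ± 0.15, adjusted p = 0.372).

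Of the 7 Hsp70, Hsp90 and Hsp110 genes not described above, which are cytosolic except for the ER-associated Hspa13, 0 passed in FRTL5 at 17 h against basal (limma; 1 with the block), and the median difference was 0.08. Hspa4, an Hsp110 that exchanges nucleotide on Hsp70, read 7.61, 7.51 and 7.42 at 17 h, against 7.24, 6.56 and 6.50 at basal, without overlap. Hspa4 differed by 0.74 ± 0.23 (adjusted p = 0.0964, and 0.0121 with the block), and its second probe set passed in both fits of 17 h against an earlier time (0.93 over basal, adjusted p = 0.0328, and 0.87 over 30 min, adjusted p = 0.0429). Hsp90ab1, the constitutive cytosolic Hsp90, differed by 0.08 ± 0.19. The stress-inducible Hspa1a read between 4.63 and 5.25 on all 18 arrays. Hspa1a and its near-identical relative Hspa1l may share probe signal. Of the 11 J proteins, which hand substrates to Hsp70, 0 passed in either fit at 17 h against basal, with differences of -0.17 to 0.39, among them Dnajc5 (-0.17), Dnaja1 (-0.01) and Dnajb1 (0.10). The 2 subunits of the cytosolic chaperonin TRiC, Cct3 and Cct6a, differed by 0.18 and 0.35 and did not pass.

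The 5 increases at 17 h depended on single arrays. Leaving out 1 array at a time left 0 to 4 of the 48 genes called, with 0 without the 17 h array 3 and 1 without the basal array 3 or the 17 h array 2. Each of the 5 calls was lost in 3 to 5 of those 6 fits, and the highest adjusted p was 0.109 for Pdia6, 0.116 for Fkbp11, 0.146 for Hspa9, 0.157 for Hspe1 and 0.201 for Fkbp4. Without all FRTL5 arrays numbered 1, 5 genes passed again, of which 2 (Fkbp11 and Fkbp4) were among the 5.

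At 30 min of TSH, 0 of the 48 genes passed in FRTL5, where 0.24% of all probe sets passed (limma; 6 genes and 2.76% of all probe sets at an unadjusted p under 0.05). The median difference was -0.03, and that of all probe sets 0.00. Ppp1r15a (GADD34), the stress-induced phosphatase subunit that restores translation by dephosphorylating eIF2 alpha, had the smallest p. It read 7.88, 7.57 and 7.34 at basal, 8.74, 8.80 and 8.76 at 30 min and 7.20, 7.56 and 7.25 at 17 h. The 30 min arrays lay within 0.1 of each other and above all other FRTL5 arrays, and the basal and 17 h arrays overlapped. Ppp1r15a differed 2.25-fold at 30 min (1.17 ± 0.24, adjusted p = 0.0644, and 0.0450 with the block; 0.60 on its second probe set), and it was the 1 of 48 genes that passed with the block, where 0.458% of all probe sets did. At 17 h it was 2.70-fold lower than at 30 min (-1.43 ± 0.24, adjusted p = 0.0028), a call kept in all 6 fits on 1 array fewer but lost on its second probe set (-0.67, adjusted p = 0.144). Hspb2, a small heat shock protein (-0.29 ± 0.11), and Pdia6 had the next smallest p at 30 min, both with an adjusted p of 1.00.

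The Ppp1r15a promoter is shown because it held the full cAMP response element TGACGTCA, in capitals, at bases -66 to -59. The element reads the same on both strands. Of the 42 genes with a window, Ppp1r15a and Hsp90ab1 held it, against 1.59% of all windows.
Ppp1r15a (chr1:105139597-105139846, - strand): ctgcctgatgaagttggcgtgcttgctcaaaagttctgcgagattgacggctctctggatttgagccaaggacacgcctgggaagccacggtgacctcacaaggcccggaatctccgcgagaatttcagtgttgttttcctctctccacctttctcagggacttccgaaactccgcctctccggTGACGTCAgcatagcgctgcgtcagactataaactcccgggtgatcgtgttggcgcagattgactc
At 30 min Hsp90ab1, the other gene with this element, differed by -0.19 ± 0.19 in FRTL5. A match is not a site shown to be bound, and whether the element had a part in these differences was not tested. Ddit3 (CHOP), the transcription factor of prolonged ER stress that induces Ppp1r15a, differed by 0.14 ± 0.29 at 30 min and 0.10 ± 0.29 at 17 h against basal in FRTL5.

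Between 30 min and 17 h of TSH, 6 of the 48 genes passed in FRTL5, 4 higher at 17 h (Pdia6, Hspe1, Fkbp4 and Ppib) and 2 lower (Ppp1r15a and Hspb1), where 4.21% of all probe sets passed, 1.86% higher and 2.35% lower, and 4.77% of all genes. The median difference was 0.26, and that of all probe sets 0.00. In 17 genes every 17 h array was above every 30 min array and in 3 every one was below, where 8.52% and 8.57% of all probe sets did so. With the block 21 genes passed, 18 higher and 3 lower, where 10.5% of all probe sets passed. Those 21 held 5 of 5 ER lumen chaperones, 3 of 4 disulfide isomerases, 3 of 3 mitochondrial chaperones and 0 of 11 J proteins. This comparison and that of 17 h with basal share the 17 h arrays. Leaving out 1 array gave 3 to 8 calls, with 3 without the 30 min array 3, and Pdia6 and Ppp1r15a passed in every one of the 6 fits. Ppib was lost in 5 of them, Hspb1 in 4, Fkbp4 in 2 and Hspe1 in 1. Without the FRTL5 arrays numbered 1, 6 genes passed, of which Pdia6 and Ppp1r15a were among these 6.

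The small heat shock proteins, which hold unfolded proteins without ATP, had negative differences from basal in FRTL5 at 17 h in 4 of 4 genes (median -0.27), of which 0 passed, and 1 of the other Hspb1 probe sets differed by 0.64 without passing. Hspb1 (Hsp27) read 9.50, 9.56 and 8.85 at basal, 9.55, 9.78 and 9.91 at 30 min and 8.62, 9.23 and 8.88 at 17 h. The 17 h arrays were all below the 30 min arrays and overlapped the basal ones. Hspb1 was 1.78-fold lower at 17 h than at 30 min (-0.83 ± 0.19, adjusted p = 0.0215). Its 3 other probe sets differed by -0.80 (adjusted p = 0.0173), -0.52 (0.171) and 0.17 (0.929). Cryab (alpha B-crystallin) read 8.27, 7.27 and 6.98 at basal, 8.31, 7.54 and 7.62 at 30 min and 7.56, 6.89 and 6.88 at 17 h. Its pairs of 17 h minus 30 min were -0.74, -0.65 and -0.74, and it differed by -0.71 ± 0.31 (adjusted p = 0.307, and 0.0257 with the block).

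**Figure D4:**
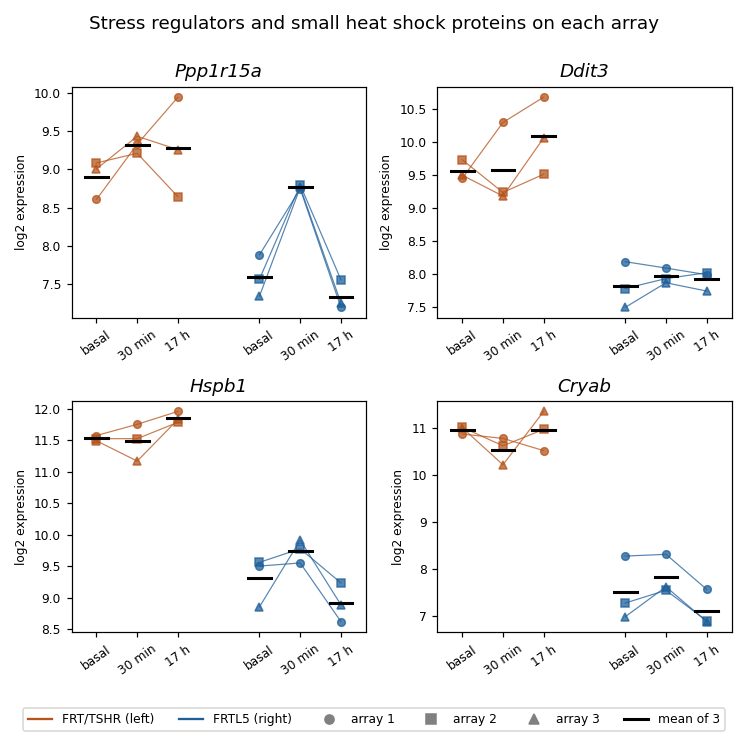
Log2 expression of Ppp1r15a, Ddit3, Hspb1 and Cryab on each array, with FRT/TSHR on the left and FRTL5 on the right of each panel and basal, 30 min and 17 h from left to right. Lines join arrays with the same replicate number in a line, and black bars are means of 3. Ppp1r15a peaks at 30 min in FRTL5, and all FRT/TSHR arrays of Ddit3, Hspb1 and Cryab lie above all FRTL5 arrays.

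In FRT/TSHR no chaperone gene passed at either time. At 17 h against basal, 30 min against basal and 17 h against 30 min, 0 of 48 genes passed, with and without the block, where 0% of all probe sets passed (limma; 2, 0 and 2 of the 48 genes and 1.24%, 2.38% and 2.05% of all probe sets at an unadjusted p under 0.05). At 17 h against basal 37 of 48 differences were positive, where 53.8% of all probe sets were. The median was 0.14 in the 48 genes and 0.01 over all probe sets. Positive differences were found in 5 of 5 ER lumen chaperones (median 0.17) and 2 of 3 mitochondrial chaperones (0.07). They were also found in 8 of 10 immunophilins (0.06) and 2 of 4 small heat shock proteins (0.08). In 6 genes the 17 h arrays were all above the basal arrays and in 2 all below, where 2.97% and 2.67% of all probe sets did so.

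Hsph1 had the smallest p in FRT/TSHR at 17 h. It read 9.01, 8.60 and 8.54 at basal, 8.87, 8.75 and 8.51 at 30 min and 9.25, 9.02 and 9.40 at 17 h, with the 17 h arrays above all others, and differed from basal by 0.51 ± 0.15 (1.42-fold, adjusted p = 1.00). Dnajb1, the Hsp40 that works with inducible Hsp70, read 8.99, 8.74 and 8.87 at 17 h, against 8.65, 8.50 and 8.37 at basal, and differed by 0.36 ± 0.12, and Fkbp1a differed by 0.36 ± 0.17, with an adjusted p of 1.00 for both. At 30 min the smallest p were those of Hspe1 (-0.33 ± 0.16), Ppif, the mitochondrial cyclophilin (0.22 ± 0.12), and Ppp1r15a. Ppp1r15a read 8.61, 9.08 and 9.01 at basal, 9.33, 9.21 and 9.43 at 30 min and 9.94, 8.64 and 9.26 at 17 h in FRT/TSHR. Its 30 min arrays were above the basal arrays, by 0.42 ± 0.24 (adjusted p = 1.00). Hsph1 (0.52), Hspa9 (0.73 ± 0.31) and Hspe1 (0.33) had the smallest p between 17 h and 30 min.

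The genes that passed in FRTL5 at 17 h had smaller differences in FRT/TSHR. They were picked by their effect in FRTL5, so smaller effects in the other line follow in part from that choice. Without the block, the difference between the lines did not pass for any of the 48 genes. Pdia6 read 8.80, 9.10 and 9.03 at basal, 8.91, 8.98 and 9.07 at 30 min and 9.11, 9.02 and 9.47 at 17 h in FRT/TSHR, overlapping throughout. Its 17 h effect was 0.22 ± 0.12 in FRT/TSHR and 0.53 ± 0.12 in FRTL5 (difference -0.31 ± 0.18, adjusted p = 0.797). The FRT/TSHR minus FRTL5 difference of the 17 h effect was -0.94 ± 0.37 for Fkbp11 (adjusted p = 0.408), -0.83 ± 0.33 for Fkbp4 (0.432), -0.83 ± 0.43 for Hspa9 (0.705) and -0.63 ± 0.23 for Hspe1 (0.341). With the block 2 of 48 genes passed, Hspe1 (adjusted p = 0.0436) and Hspd1 (0.0161), both with the smaller effect in FRT/TSHR. In the fit without the block Hspd1 had a difference of -0.84 ± 0.51 and did not pass. Of all probe sets 0.789% passed this comparison without the block and 4.18% with it. Hspb1 had a difference of 0.72 ± 0.27 (adjusted p = 0.379), with 17 h effects of 0.33 in FRT/TSHR and -0.39 in FRTL5. At 30 min 0 of 48 genes passed in either fit, where 0.0343% of all probe sets did without the block and 0.0915% with it. Hspb2 (0.46 ± 0.15), Dnaja1 (0.56 ± 0.22) and Ppif (0.41 ± 0.17) had the smallest p, and Ppp1r15a differed by -0.75 ± 0.34, all with an adjusted p of 1.00. The second Dnaja1 probe set had the opposite sign (-0.46).

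More of the 48 genes passed between the lines than over time in either line. Without TSH, 20 of the 48 genes passed between FRT/TSHR and FRTL5, 15 higher and 5 lower in FRT/TSHR, where 25.5% of all probe sets passed, 13.3% higher and 12.2% lower, and 28.5% of all genes. The median difference was 0.19, and that of all probe sets -0.04. The shares of all probe sets also apply to the counts by role below, which were not tested. Of the 48 genes, 16 had FRT/TSHR arrays all above and 7 all below the FRTL5 arrays, where 17.5% and 19.5% of all probe sets did so.

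**Figure D5:**
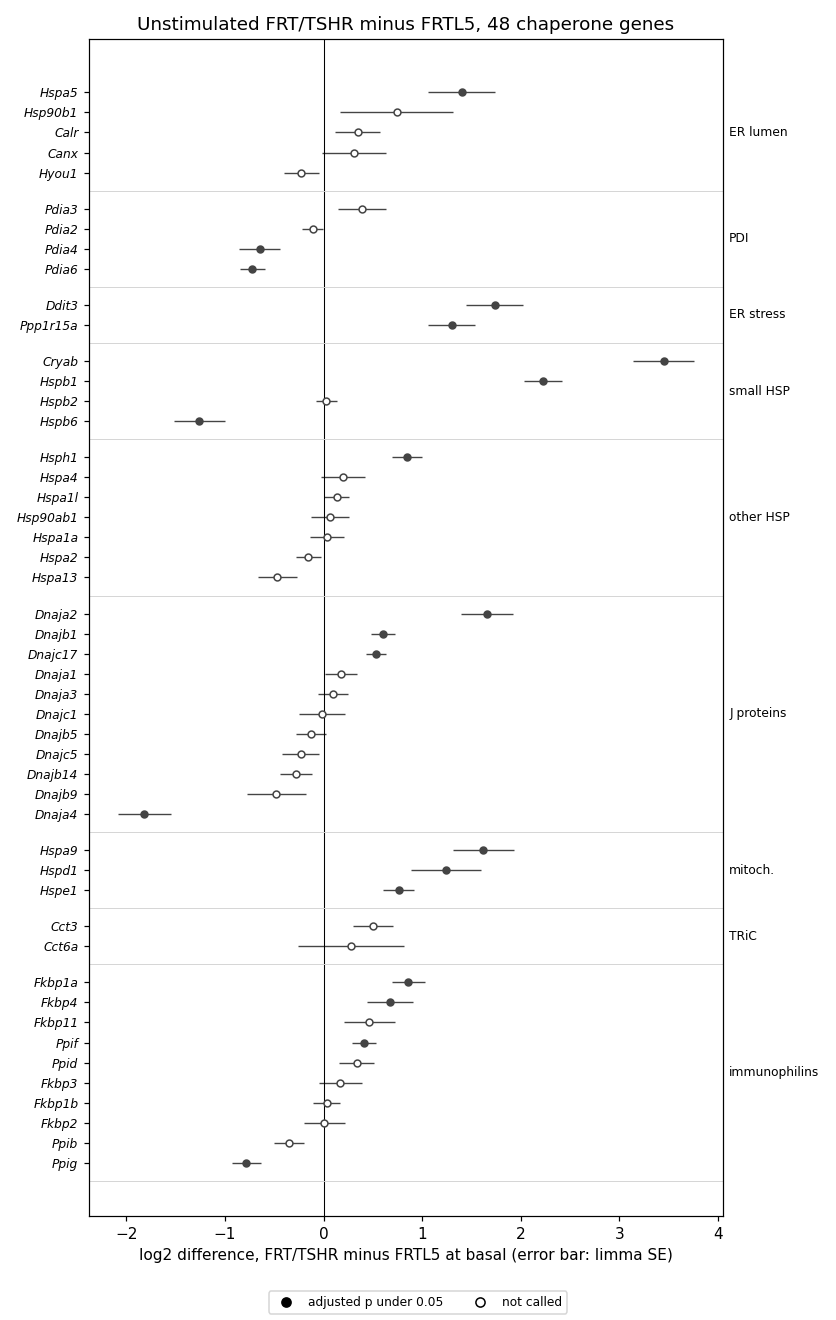
Log2 difference at basal, FRT/TSHR minus FRTL5, for the 48 genes by role, with limma SE as the error bar. Filled points passed at an adjusted p under 0.05. Cryab and Hspb1 lie farthest right and Dnaja4 and Hspb6 farthest left. All 3 genes of the mitochondrial role list and both ER stress regulators are filled and right of 0.

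Of the 4 small heat shock proteins, 2 were higher and 1 lower in FRT/TSHR. Cryab read 10.86, 11.01 and 11.00 in FRT/TSHR, against 8.27, 7.27 and 6.98 in FRTL5 at basal. Even the highest FRTL5 array was more than 2 log2 units below the FRT/TSHR arrays. Cryab was 10.9-fold higher in FRT/TSHR (3.45 ± 0.31, adjusted p = 3.0e-07), and its second probe set differed by 3.57 (adjusted p = 4.5e-06). Hspb1 read 11.57, 11.52 and 11.49 in FRT/TSHR, against 9.50, 9.56 and 8.85 in FRTL5, a 4.67-fold difference without overlap (2.22 ± 0.19, adjusted p = 2.1e-07). Its other probe sets differed by 2.32, 1.92 and 0.44, the last without passing (adjusted p = 0.217). Hspb6 (Hsp20) read 5.25, 5.25 and 5.12 in FRT/TSHR, against 6.73, 6.74 and 5.91 in FRTL5, and was 2.39-fold lower in FRT/TSHR (-1.26 ± 0.26, adjusted p = 0.0016). Hspb2 differed by 0.03 and did not pass.

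Both ER stress regulators were higher in FRT/TSHR. Ddit3 read 9.44, 9.73 and 9.49 in FRT/TSHR, against 8.19, 7.78 and 7.50 in FRTL5, a 3.33-fold difference (1.73 ± 0.29, adjusted p = 0.0002). Ppp1r15a was 2.47-fold higher (1.30 ± 0.24, adjusted p = 0.0006), and its basal FRT/TSHR arrays, at 8.61 to 9.08, overlapped the FRTL5 arrays at 30 min of TSH, at 8.74 to 8.80.

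The ER folding genes differed between the lines in both directions, with 1 of 5 lumen chaperones higher and 2 of 4 disulfide isomerases lower in FRT/TSHR. Hspa5 read 8.62, 9.29 and 9.41 in FRT/TSHR, against 7.88, 7.67 and 7.56 in FRTL5 at basal, and was 2.64-fold higher in FRT/TSHR (1.40 ± 0.34, adjusted p = 0.0050). Hsp90b1 (0.74 ± 0.57), Calr (0.35 ± 0.23), Canx (0.31 ± 0.33) and Hyou1 (-0.22 ± 0.18) did not pass. Pdia6 was 1.65-fold lower in FRT/TSHR (-0.72 ± 0.12, adjusted p = 0.0003) and Pdia4 1.56-fold lower (-0.65 ± 0.21, adjusted p = 0.0305), both without overlap, while Pdia3 differed by 0.39 ± 0.25 and did not pass. The Pdia4 call failed in 4 of 6 fits on 1 array fewer, and its highest adjusted p was 0.124, without the FRTL5 basal array 2.

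All 3 genes of the mitochondrial role list were higher in FRT/TSHR at basal. Outside the list, the mitochondrial Trap1 differed by -0.04 ± 0.17 and did not pass (adjusted p = 0.910). Dnaja3 averaged 7.24 in FRT/TSHR and 7.14 in FRTL5 and did not pass. Ppif, the mitochondrial cyclophilin counted with the immunophilins, passed as higher in FRT/TSHR. Hspa9 read 7.76, 7.53 and 8.19 in FRT/TSHR, against 6.33, 6.58 and 5.70 in FRTL5 (3.08-fold, 1.62 ± 0.31, adjusted p = 0.0007), but its second probe set differed by 0.62 and did not pass (adjusted p = 0.191). Hspd1 was 2.37-fold higher (1.24 ± 0.36, adjusted p = 0.0160), a call that failed in 3 of 6 fits on 1 array fewer (0.0974 without the FRTL5 basal array 3). Hspe1 was 1.69-fold higher (0.76 ± 0.16, adjusted p = 0.0018). The FRTL5 17 h arrays of Hspe1, at 9.21 to 9.70, lay in the range of the basal FRT/TSHR arrays, at 9.25 to 9.75, except for the lowest one.

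Among the other Hsp70, Hsp90 and Hsp110 genes 1 of 7 passed, Hsph1, which was 1.80-fold higher in FRT/TSHR (0.85 ± 0.15, adjusted p = 0.0004). Hsp90ab1 (0.06 ± 0.19) and Hspa4 (0.20 ± 0.23) did not pass, nor did Hspa13 (-0.47 ± 0.20, adjusted p = 0.0981). Of the 11 J proteins 3 were higher and 1 lower, where 13.3% and 12.2% of all probe sets were. Dnaja2 and Dnajb1, cytosolic Hsp40 proteins, were 3.15-fold (1.66 ± 0.27, adjusted p = 0.0002) and 1.52-fold (0.61 ± 0.12, adjusted p = 0.0010) higher in FRT/TSHR. The Dnajb1 call rested on 1 of its 2 probe sets, and the other differed by 0.07 (adjusted p = 0.852). Dnajc17 was 1.44-fold higher (0.53 ± 0.10, adjusted p = 0.0008). Dnaja4 read 4.40, 4.63 and 4.17 in FRT/TSHR, against 6.43, 6.86 and 5.37 in FRTL5, and was 3.52-fold lower in FRT/TSHR (-1.82 ± 0.27, adjusted p = 7.6e-05). Cct3 and Cct6a differed by 0.50 ± 0.20 and 0.28 and did not pass.

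Among the immunophilins 3 of 10 were higher and 1 lower in FRT/TSHR at basal, where 13.3% and 12.2% of all probe sets were. Fkbp1a was 1.81-fold higher (0.86 ± 0.17, adjusted p = 0.0010), Fkbp4 1.59-fold (0.67 ± 0.23, adjusted p = 0.0459) and Ppif 1.33-fold (0.41 ± 0.12, adjusted p = 0.0185). The Fkbp4 call failed in 5 of 6 fits on 1 array fewer (0.236 without the FRTL5 basal array 3) and rested on 1 of its 3 probe sets, and the Ppif call was lost in 3 (0.0877 without the FRT/TSHR basal array 2). Ppig was 1.72-fold lower (-0.78 ± 0.15, adjusted p = 0.0008), but its second probe set differed by -0.20 (adjusted p = 0.497), while Ppib differed by -0.35 ± 0.15 and did not pass. The other 16 of the 20 calls passed in every one of the 6 fits.

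Other genes of the same pathways, which are not among the 48, were counted from 2 lists. Of 34 ER folding and unfolded protein response genes 15 were measured. In FRTL5 0 of 15 passed at 17 h against basal, where 3.56% of all probe sets did. Of the 15, 13 had a positive difference, where 53.2% of all probe sets did, and the median of the 15 was 0.34. At 17 h against 30 min Rpn2, a subunit of the glycosylating enzyme, rose (0.65 ± 0.17, adjusted p = 0.0475). Ero1b, an oxidase that recharges disulfide isomerases, fell by 0.96 (adjusted p = 0.0117). Of 22 genes listed as mainly cytosolic folding genes and heat shock factors 9 were measured. Those 9 included Trap1, Serpinh1 and Hmox1, which are not cytosolic folding genes. At 17 h against basal 0 of the 9 passed. At 17 h against 30 min 1 rose, Stip1, the adaptor between Hsp70 and Hsp90 (0.66 ± 0.14, adjusted p = 0.0163). Of all probe sets 1.86% rose and 2.35% fell in that comparison. In FRT/TSHR 0 of the 15 and 0 of the 9 passed over time. At basal 6 of the 15 were higher and 2 lower in FRT/TSHR than in FRTL5. Of the 9, 5 were higher, Hmox1 among them, and 1, Serpinh1, was lower. Of all probe sets 13.3% were higher and 12.2% lower.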

How the data were processed

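Total RNA of 18 cultures was labelled with biotin and hybridised to Affymetrix arrays. The deposited table holds log2 expression values per probe set, which the authors made with RMA, per the submitters' processing notes; version and settings are not given in the sources used here, and scanner files were not analysed here. Of 8799 probe sets 59 controls were left out, and all other 8740 entered the fit, dim ones included. Genes were named from the platform annotation (1 symbol for 7006 probe sets, several for 308, none for 1426), and all 48 matched the GRCr8 table by gene number. Promoter sequences are RefSeq's (GRCr8), with none for Pdia6, Fkbp3, Dnaja2, Hspb2, Pdia3 and Cryab. Probe sets are given without coordinates, since the sources used here name no build for them.

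A model with 1 mean per group was fitted over the 18 arrays in limma 3.58.1 (R 4.3.3; lmFit, eBayes). Tests were two-sided, with Benjamini-Hochberg adjustment over 8740 probe sets within each of 9 comparisons and a threshold of 0.05. Errors are limma SE, or SD of 3 arrays. Precision is limited by the small number of arrays. The code was tested on simulated data.

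Same-numbered arrays of a line correlated in their deviations from the group means at 0.15 to 0.80, and those of different lines at -0.22 to 0.42. The numbers were taken to pair arrays within a line and not across lines. These ranges overlap, so the correlations do not settle the pairing. The pairing is therefore an assumption, as the labels give only the numbers. No 2 arrays shared more than 0.0229% identical values.

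The genes, role lists, related lists and tests were chosen with earlier results of these data known. Named genes were Pdia6, Hspb1, Cryab, every gene called over time, the 3 highest means of each role list, the 3 smallest p of each comparison within a line, and up to 3 called genes per role list and direction between the basal lines. Alternatives were the replicate block, other normalizations, a filter on dim probe sets, fewer arrays in the fit, another variance model, the second probe set and arrays left out.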

Additional observations from a re-analysis of the deposited data

How the results depend on the processing

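No called difference changed sign under the alternatives tried, the second-brightest probe set included. Over all 43 further probe sets, the sign of the brightest was shared by 26 in FRTL5 at 30 min against basal, 36 at 17 h against basal, 37 at 17 h against 30 min and 40 between the basal lines, and 1 of Hspb1 differed by 0.17 at 17 h against 30 min in place of -0.83. With the replicate block the number of chaperone genes called was 1 in FRTL5 at 30 min against basal, 13 at 17 h against basal, 21 at 17 h against 30 min and 2 for the difference of the 17 h effect between lines, in place of 0, 5, 6 and 0. Between the basal lines, where the numbers were not taken to pair the arrays, the block gave 22 calls in place of 20. For FRTL5 at 17 h against basal, centring arrays on their medians gave 3 calls, eBayes with trend and robust 2, and only the arrays compared, with fewer arrays to estimate the spread, 0. Only the arrays compared also gave 3 calls at 17 h against 30 min, and quantile normalizing again gave 1 call at 30 min (Ppp1r15a). Leaving out 1 array gave 0 to 4 calls at 17 h against basal and 3 to 8 at 17 h against 30 min in FRTL5, 17 to 20 between the basal lines, and 0 in the other comparisons. The second probe set gave 4 calls at 17 h against basal, 3 at 17 h against 30 min and 16 between the basal lines. Under every alternative other than leaving out 1 array, 0 of the 5 calls at 17 h against basal, 1 of the 6 at 17 h against 30 min (Pdia6, which has 1 probe set) and 14 of the 20 between the basal lines were kept, and Ppig had no value after the filter on dim probe sets. The cause of these changes was not tested. With 3 arrays a group, small differences cannot be shown, and signal over background was not measured here.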
